A study of Mus musculus with 3 samples.

Results

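The genes described here are 44 Fanconi and DNA repair genes, taken from a list of symbols with no threshold on a measured value, and all 44 were among the 24982 gene symbols of the data. RNA sequencing measured them in mouse bone marrow cells sorted as LKS, that is, lacking lineage markers and carrying Kit and Sca1, a gate that contains blood stem cells and early progenitors. A label of each sample also uses the name LLP cells, which is not explained in the sources used here. There were 2 libraries from wild-type (WT) recipient mice and 1 library from recipients lacking CD73 (called KO here). The gene for CD73, a surface enzyme that makes adenosine from extracellular AMP, is Nt5e. The sources used here give no age, strain or transplant scheme, do not tell whether donor or host cells were sorted, and do not state that the WT libraries are separate animals.

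Cells repair DNA damage by several routes, and the listed genes cover 8 roles in them. The Fanconi core complex is a ubiquitin ligase that marks the clamp made of Fancd2 and Fanci at crosslinks between the DNA strands, after which nucleases cut the crosslink out and homologous recombination restores the broken copy. Double-strand breaks are sensed by the Mre11, Rad50 and Nbn complex and by the kinases Atm and Atr, and are mended by homologous recombination or by end joining. Mismatch repair corrects copying errors, nucleotide excision repair removes bulky lesions, and base excision repair removes small base damage and mends single-strand breaks. Inherited loss of Fanconi genes causes bone marrow failure in humans, with loss of blood stem cells.

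Depth was low. Gene-level counts totalled 361638 for WT replicate 1, 324954 for WT replicate 2 and 264704 for KO, and values for single libraries are given in that order throughout. The highest count of a listed gene was 102, for Fancd2. A total of 3 counts, the limit that a count of 0 allows, corresponded to 8.30, 9.23 and 11.3 CPM (counts scaled to the library total). Intervals and limits cover counting error only. Nt5e had 0 counts in every library, so it gave no check of the KO label. Of the gate genes Kit had 187, 207 and 147 counts and Ly6a, which encodes Sca1, had 60, 19 and 36. Summed CPM of mature neutrophil markers was 830, 1148 and 378, and that of B lineage markers 16.6, 64.6 and 7.56, both lowest in KO. Erythroid markers summed to 426, 129 and 601 CPM, the highest in KO. Among them Hbb-bt had 151, 42 and 114 counts, Car1 had 0, 0 and 20, and Epor had 3, 0 and 25. The part of marker lists in the results was not tested. Sums for dendritic cells were 365, 526 and 1371 CPM, the highest in KO, with 5 of 8 genes at 0 in each library. Of these genes H2-Aa had 0, 9 and 106 counts and H2-Ab1 had 24, 11 and 201. Flt3 went the other way, with 104, 151 and 56 counts. Monocyte and macrophage markers summed to 216, 689 and 601 CPM. Of these 7 genes KO lay above both WT libraries at 3, below both at 1 and within their range at 3. Ccr2 had 0, 6 and 39 counts, whereas Lyz2 had 32, 112 and 20. T and NK markers summed to 194, 105 and 155 CPM, mostly Nkg7, and stroma and endothelium markers to 149, 206 and 128. The defining markers Cd3e, Cd79a, Siglech and Col1a1 were at 0 in every library, while Cd79b had 5, 17 and 0 counts and Cxcl12 had 0, 0 and 8.

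The 44 genes together made up 3033 and 2954 CPM in the WT libraries and 2108 CPM in KO. The 95% exact binomial (Clopper-Pearson) intervals were 2857 to 3218, 2771 to 3147 and 1937 to 2290 CPM, so the KO value lay below both WT values by more than counting error. With 1 library against 2, no permutation of the libraries can give an exact p under 0.333, so no p is given for this sum. The roles did not share one direction. Summed CPM was lower in KO than in both WT libraries for 7 of the 8 roles and higher for base excision and single-strand break repair. The margin was small for homologous recombination (324, 449 and 321 CPM). For the clamp the sum was lowest in KO although KO lay between the WT libraries at each of its genes. The KO interval lay clear of both WT intervals for the core complex, break sensing, end joining and base excision, and overlapped at least 1 of them for the other 4 roles. For base excision the 2 WT intervals also lay clear of each other (359 to 496 and 228 to 347 CPM). The same held for the clamp and mismatch repair, so in these roles the WT libraries themselves differed by more than counting error. The KO level was 9.67% of the WT mean for end joining, 45.8% for the core complex, 83.1% for homologous recombination and 179% for base excision.

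**Figure D1:**
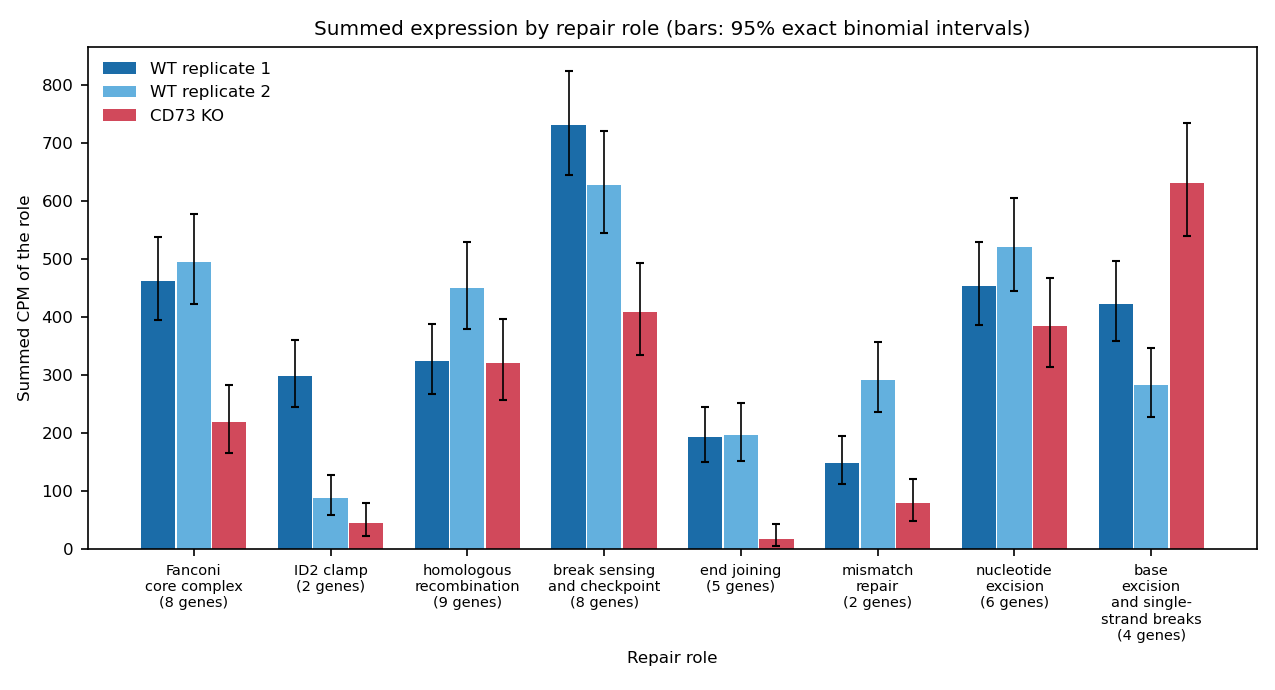
Summed CPM of the listed genes in each of 8 repair roles, for the 3 libraries, with 95% exact binomial intervals as error bars. End joining stood at 194, 197 and 18.9 CPM, while base excision and single-strand break repair stood at 423, 283 and 631 CPM.

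No listed gene passed the test. In edgeR's quasi-likelihood test with Benjamini-Hochberg adjustment over 7984 genes, 0 of the 35 listed genes tested were called, against 8 genes (0.1%) higher and 0 genes (0%) lower over all genes tested. At an unadjusted p under 0.05 there was 1 listed gene, Fance, on the lower side, where 6.51% of all tested genes lay, and 0 on the higher side, where 3.53% lay. DESeq2 also called 0 listed genes, with 4 of 35 at an unadjusted p under 0.05, beside 13.2% of all tested genes. It gave no adjusted p for several of the 35, Fancf, Fancg, Fancl and Brca1 among them, so these could not be called. The 9 genes left out for low counts were Fancb, Palb2, Rad51c, Xrcc2, Chek1, Lig4, Xrcc4, Xpa and Ercc1. Of the 35 tested, 24 had a negative log2 fold change in KO, beside 56.9% of all tested genes. Their median was -1.16, or -1.14 with genes at 0 in KO set to their bound, against -0.31 over all tested genes. These are descriptions only, since a gene with reads in 1 group alone could enter the test.

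Size was also described apart from the test. A library was counted as standing apart at a gene if, on CPM plus 1, it was at least 2-fold above both other libraries or at least 2-fold below both. Of the 36 listed genes that reached 10 counts in a library, KO stood apart on the lower side at 14 (38.9%) and on the higher side at 2. Over all 8449 such genes the KO shares were 23.5% lower and 13.4% higher. The WT libraries stood apart at fewer listed genes on the lower side, with 5 for WT replicate 1 and 4 for WT replicate 2, beside 12.8% and 15.2% of all genes. On the higher side they stood apart at 4 and 7, beside 14.9% and 15.8%. Against WT replicate 1 alone 15 of the 36 listed genes were at least 2-fold lower and 7 higher in KO, beside 34.6% and 24.6% of all genes. Against WT replicate 2 alone 21 were lower and 6 higher, beside 35.6% and 26.9% of all genes. Of the 10 listed genes that reached 50 counts, KO stood apart on the lower side at 3 and on the higher side at 0, beside 17.9% and 9.25% of all such genes. WT replicate 2 stood apart at 3 lower and 1 higher (11.3% and 13.0% of all such genes), and WT replicate 1 at 0 lower and 2 higher (8.12% and 10.7%).

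**Figure D2:**
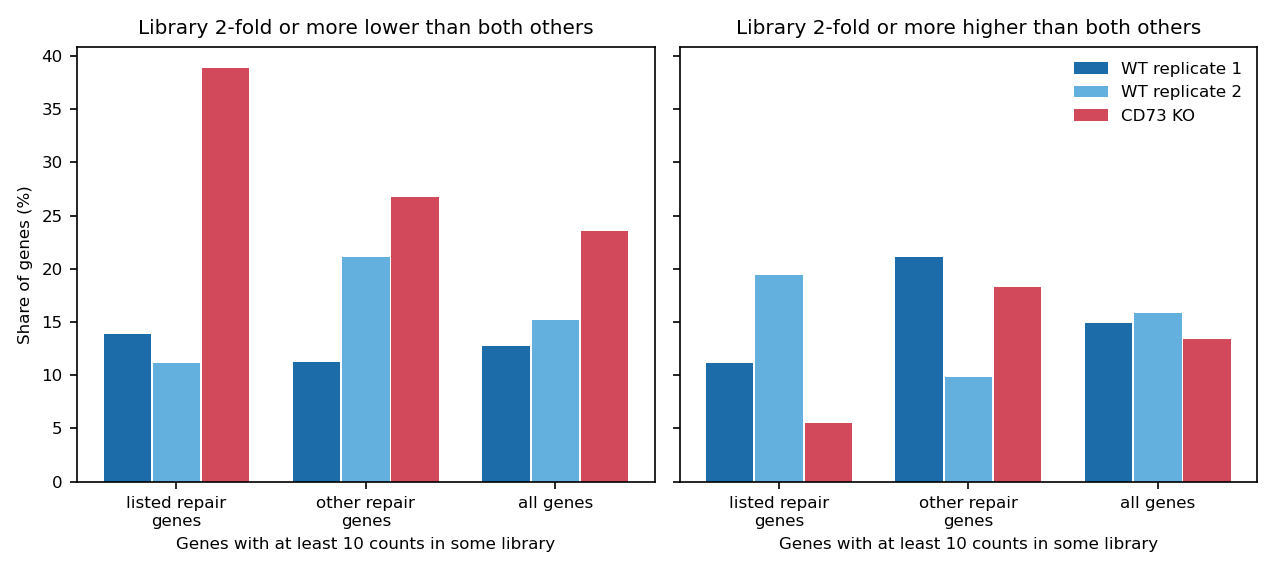
Share of genes (percent) at which one library lay at least 2-fold below (left) or above (right) both others, for the listed repair genes, other repair genes and all genes, each reaching 10 counts in a library. KO lay below both WT libraries at 38.9% of the listed genes, 26.8% of the other repair genes and 23.5% of all genes.

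Of the 10 listed genes with 0 counts in KO, 4 belong to the 8-gene Fanconi core complex. Fance, the subunit that contacts Fancd2, had 56, 48 and 0 counts, or 155, 148 and 0 CPM. Fancg, a scaffold subunit, had 21, 17 and 0 counts. Fancl, the subunit with the ubiquitin ligase activity, had 10, 17 and 0 counts. These genes had counts in both WT libraries and none in KO, where up to 3 counts (11.3 CPM) could have been missed. Fancf, an adaptor within the complex, had 5, 26 and 0 counts, and its WT libraries differed from each other widely. Against the limit of 3 KO counts, Fance was at least 13.3-fold lower, Fancg at least 4.87-fold, Fancf at least 4.14-fold and Fancl at least 3.53-fold lower than the WT mean. Against WT replicate 1 alone the bound was 1.22-fold for Fancf and 2.44-fold for Fancl, and against WT replicate 2 alone 7.06-fold and 4.62-fold. The adjusted p from edgeR was 0.12 for Fance, 0.50 for Fancg, 0.62 for Fancf and 0.72 for Fancl. Fance also had the smallest adjusted p in DESeq2 of the listed genes that were given one, at 0.077. The other 3 were given none.

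Zero counts in KO were common among all genes at this depth. Of 4610 genes that reached 10 counts in both WT libraries, 330 (7.16%) had 0 in KO, and of the 24 listed genes among them 3 did, Fance, Fancg and Fancl. The mirrored share, 0 in one WT library and at least 10 in the other 2 libraries, was 2.52% for WT replicate 1 and 2.65% for WT replicate 2 over all genes, with 0 of 19 and 0 of 17 listed genes. Fance has 4 transcript rows in the data, which held 42 to 56 counts in WT replicate 1, 48 each in WT replicate 2 and 0 each in KO. Per length, Fance had the highest WT mean of the 44 genes, at 80.6 ± 3.25 FPKM (the deposited value scaled to transcript length and depth, SD, n = 2). It was listed at 0 FPKM in KO. Fance led in neither WT library alone. In WT replicate 1 Xrcc1 stood at 102 and Fance at 78.3 FPKM, and in WT replicate 2 Apex1 stood at 83.0 and Fance at 82.9.

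The other 4 core subunits had counts in every library. Fanca, a large core subunit, had 21, 21 and 7 counts (58.1, 64.6 and 26.4 CPM), lower in KO than in both WT libraries (log2 fold change -1.16, SE 1.86, edgeR adjusted p 0.90). Fancm, the DNA translocase that anchors the complex to chromatin, had 24, 19 and 30 counts (66.4, 58.5 and 113 CPM) and was the highest in KO. Fancc had 24, 8 and 15 counts, so KO lay between the WT libraries, and Fancb had 6, 5 and 6. Each clamp gene was high in a single WT library, and not in the same one. Fancd2 had 102, 4 and 7 counts, with WT replicate 1 apart from both others, and Fanci had 6, 25 and 5, with WT replicate 2 apart. For both clamp genes KO lay between the WT libraries.

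The windows upstream of the start site are shown for the core genes at 0 in KO, for Xrcc6, the end joining gene with the most counts, and for Chek2, which was higher in KO, so that genes of both directions can be compared. The sequences are from RefSeq (GRCm38.p6, the assembly of mm10), hold the 250 bases before the start site in its promoter table and read 5′ to 3′ on the gene's strand. For Xrcc6, Fancg and Chek2 that start site lies inside the gene span given further on, which other transcripts extend. Capitals mark an E2F core (TTCCCGC or TTGGCGC) or a CCAAT box (CCAAT) on either strand.
Fance, chr17:28313280-28313529, plus strand: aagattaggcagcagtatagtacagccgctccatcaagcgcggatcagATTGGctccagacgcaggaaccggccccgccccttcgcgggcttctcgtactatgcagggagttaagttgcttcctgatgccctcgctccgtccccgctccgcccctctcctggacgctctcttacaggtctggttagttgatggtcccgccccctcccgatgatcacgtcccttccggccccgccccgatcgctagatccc
Fancg, chr4:43010302-43010551, minus strand: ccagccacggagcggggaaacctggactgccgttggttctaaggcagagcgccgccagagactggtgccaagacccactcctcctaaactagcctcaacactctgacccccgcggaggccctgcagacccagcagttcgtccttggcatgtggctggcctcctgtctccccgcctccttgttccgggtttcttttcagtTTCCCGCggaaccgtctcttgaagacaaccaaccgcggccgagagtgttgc
Fancf, chr7:51862268-51862517, minus strand: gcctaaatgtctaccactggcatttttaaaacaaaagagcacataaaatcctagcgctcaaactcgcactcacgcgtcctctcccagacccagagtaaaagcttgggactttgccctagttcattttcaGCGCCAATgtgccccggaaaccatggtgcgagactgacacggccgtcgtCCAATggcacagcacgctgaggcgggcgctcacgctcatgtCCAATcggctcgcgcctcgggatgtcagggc
Fancl, chr11:26386834-26387083, plus strand: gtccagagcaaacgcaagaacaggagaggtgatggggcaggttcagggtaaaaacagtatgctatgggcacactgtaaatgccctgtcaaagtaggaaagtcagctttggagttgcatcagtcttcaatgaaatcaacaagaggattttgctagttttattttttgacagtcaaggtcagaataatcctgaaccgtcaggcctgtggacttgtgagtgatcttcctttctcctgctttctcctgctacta
Xrcc6, chr15:82016119-82016368, plus strand: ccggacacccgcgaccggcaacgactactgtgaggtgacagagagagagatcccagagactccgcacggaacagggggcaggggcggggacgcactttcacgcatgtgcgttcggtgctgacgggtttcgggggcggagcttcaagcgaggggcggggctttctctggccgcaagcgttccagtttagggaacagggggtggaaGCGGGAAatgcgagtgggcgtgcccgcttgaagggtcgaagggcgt
Chek2, chr5:110839733-110839982, plus strand: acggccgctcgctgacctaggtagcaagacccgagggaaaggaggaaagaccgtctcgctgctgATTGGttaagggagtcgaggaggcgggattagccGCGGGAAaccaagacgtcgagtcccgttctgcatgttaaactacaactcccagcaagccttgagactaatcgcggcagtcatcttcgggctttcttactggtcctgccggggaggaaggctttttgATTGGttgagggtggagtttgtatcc

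E2F factors drive genes of DNA synthesis at the entry into S phase, and CCAAT boxes are bound by NF-Y. Windows were found for 37 of the 44 genes, 40 windows in all. An E2F core was present in 11 of the 40 windows (27.5%), against 5.62% of all 32851 windows and 7.20% of those of protein-coding genes. A CCAAT box was present in 24 (60.0%), against 33.8% and 35.4%. Of the 11 windows of genes at which KO stood apart on the lower side 3 held an E2F core, and of the 29 other windows 8 did. A CCAAT box was in 8 of those 11 and in 16 of the 29 others. The CHR letters TTTGAA, an element of genes of late cell cycle phases, were in 0 of the 40 windows, against 14.5% of protein-coding windows. Overlapping matches occur, as in Fancf, where an E2F core and a CCAAT box share bases, and a match is only a run of letters.

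**Figure D3:**
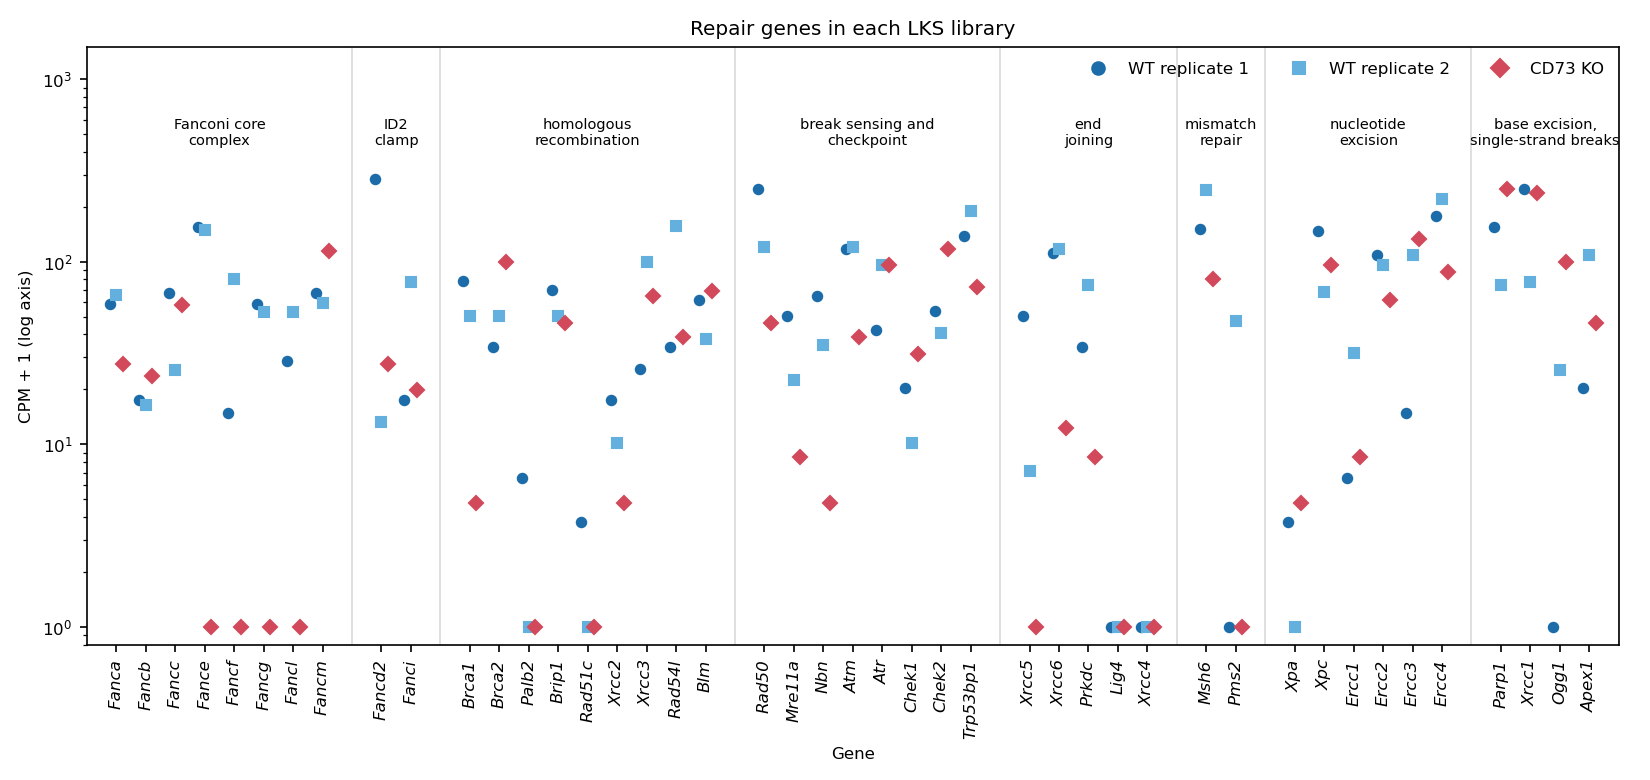
CPM plus 1 on a log axis for each of the 44 genes in the 3 libraries, grouped by repair role; genes with 0 counts sit at 1. Fance, Fancf, Fancg and Fancl are at 0 in KO, and Xrcc6 stands at 111 and 117 CPM in WT and 11.3 in KO.

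End joining had the lowest KO level of the 8 roles. Xrcc6 encodes Ku70, one side of the ring that grips broken ends, and had 40, 38 and 3 counts. In WT it averaged 114 ± 4.48 CPM (SD, n = 2), against 11.3 CPM in KO, with a log2 fold change of -3.24 (SE 1.79, edgeR adjusted p 0.56). The 2 WT libraries were close to each other and the KO library stood far below both. Xrcc5, which encodes the partner Ku80, had 18, 2 and 0 counts, so WT replicate 2 lay near KO. The KO level was at least 2.47-fold below the WT mean (edgeR adjusted p 0.82) and at least 4.39-fold below WT replicate 1, whereas WT replicate 2 was itself under the limit of 3 KO counts. Prkdc, the DNA-dependent kinase that Ku recruits, had 12, 24 and 2 counts (log2 fold change -2.72, SE 2.43, edgeR adjusted p 0.79). The ligase Lig4 and its partner Xrcc4 had 0 counts in every library, below detection at this depth. For other end joining genes the summed CPM of Nhej1, Dclre1c, Polq, Poll, Polm and Paxx was 99.5, 108 and 113, and of these Dclre1c, the nuclease Artemis, had 13, 4 and 0 counts.

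In break sensing and the checkpoint, the 3 genes of the sensor complex were lower in KO than in both WT libraries. Rad50, its ATPase, had 90, 39 and 12 counts (249, 120.0 and 45.3 CPM; log2 fold change -1.98, SE 1.26, edgeR adjusted p 0.65). Nbn, the subunit that brings in Atm, had 23, 11 and 1 counts (log2 fold change -3.52, SE 2.85, edgeR adjusted p 0.78). Mre11a, the nuclease, had 18, 7 and 2 counts (log2 fold change -2.15, SE 3.27, edgeR adjusted p 0.89). For each of the 3 genes WT replicate 1 was the highest library and KO the lowest. Atm, the kinase they activate, had 42, 39 and 10 counts (118 ± 2.74 CPM in WT, SD, n = 2, and 37.8 in KO), with WT libraries nearly equal (log2 fold change -1.59, SE 1.48, edgeR adjusted p 0.80). Trp53bp1, which steers breaks towards end joining, had 50, 61 and 19 counts, also lowest in KO.

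The kinases of stalled replication and the effector kinases were not lower in KO. Atr had 15, 31 and 25 counts (41.5, 95.4 and 94.4 CPM), with KO next to WT replicate 2. Chek1, the kinase downstream of Atr, had 7, 3 and 8 counts. Chek2, the kinase downstream of Atm, had 19, 13 and 31 counts (52.5, 40.0 and 117 CPM), higher in KO than in both WT libraries (log2 fold change 1.37, SE 1.48, edgeR adjusted p 0.83). The 13 other genes of this role summed to 1007, 1000.1 and 1243 CPM, higher in KO than in both WT libraries. Much of that excess lay in 1 gene, Clspn, at 69.1, 55.4 and 276 CPM. KO lay above both WT libraries at 4 of the 13, below both at 1 and within their range at 8. Atm and Chek2 lay on opposite sides of the WT pair in the KO library.

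**Figure D4:**
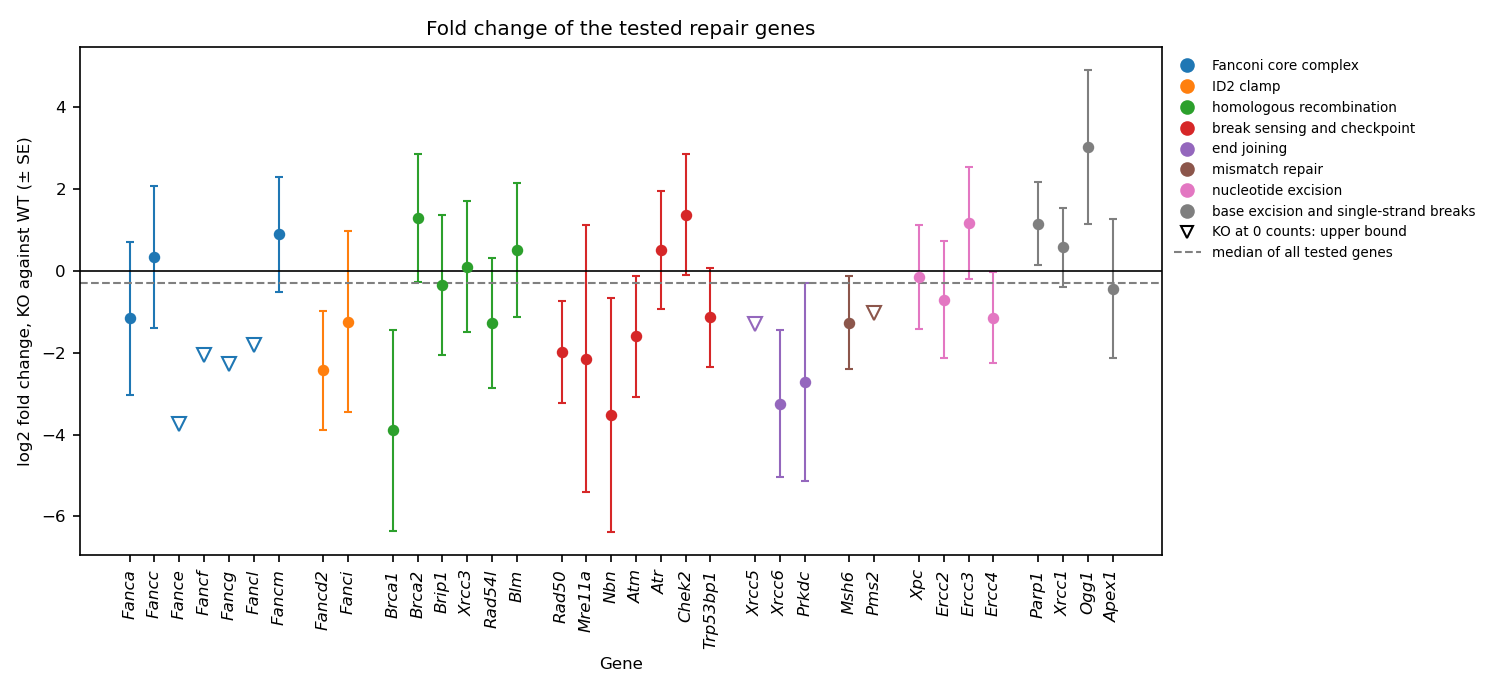
Log2 fold change of KO against WT with its SE for the 35 tested genes, coloured by role; open triangles are upper bounds for genes at 0 in KO, computed against 3 KO counts. The median over all tested genes (-0.31) is dashed, and most SE bars are more than 1 log2 unit long on each side.

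Homologous recombination genes gave mixed values, and their summed CPM was 324, 449 and 321. Brca1, which promotes end resection and loading of the recombinase, had 28, 16 and 1 counts (77.4, 49.2 and 3.78 CPM; log2 fold change -3.90, SE 2.45, edgeR adjusted p 0.64). Brca2, which loads the recombinase onto DNA, lay on the other side, with 12, 16 and 26 counts (33.2, 49.2 and 98.2 CPM). In KO this pair lay on opposite sides of the WT libraries, neither past the test. Rad54l, a motor protein of strand exchange, had 12, 51 and 10 counts, with WT replicate 2 apart. Of the helicase genes Brip1 had 69.1, 49.2 and 45.3 CPM, just below both WT libraries in KO, and Blm had 60.8, 36.9 and 68.0 CPM, just above both. Xrcc3, a paralog of the recombinase, had 9, 32 and 17 counts, with KO between the WT libraries. Palb2, Rad51c and Xrcc2 had at most 6 counts in any library.

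Of the mismatch repair genes Msh6, a subunit of the mismatch sensor, had 54, 80 and 21 counts (198 ± 68.5 CPM in WT, SD, n = 2, and 79.3 in KO; log2 fold change -1.27, SE 1.14, edgeR adjusted p 0.79). KO lay below both WT libraries. Pms2, the nuclease subunit of the next step, had 0, 15 and 0 counts, so it was seen in a single WT library.

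Nucleotide excision repair genes varied in both directions. Ercc4, which encodes the 5′ nuclease XPF, had 64, 71 and 23 counts (177, 218 and 86.9 CPM; log2 fold change -1.14, SE 1.12, edgeR adjusted p 0.81) and was the lowest in KO. Its partner Ercc1 had only 2, 10 and 2 counts. The 2 helicases of the TFIIH complex did not run together: Ercc2 had 39, 31 and 16 counts, and Ercc3 had 5, 35 and 35. Xpc, the lesion sensor, had 53, 22 and 25 counts, with KO between the WT libraries, and Xpa had at most 1 count. Of the TFIIH subunits outside the list, Gtf2h3 had 51, 23 and 0 counts (edgeR adjusted p 0.24) and was at 0 in KO alone, whereas Gtf2h1 had 13, 15 and 27. Gtf2h2 had 14, 10 and 3 counts, and Gtf2h4 had 13, 3 and 14.

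Base excision and single-strand break repair was the one role with a higher sum in KO. Parp1, the sensor of single-strand breaks, had 56, 24 and 66 counts (155, 73.9 and 249 CPM; log2 fold change 1.16, SE 1.02, edgeR adjusted p 0.79), the highest in KO. Ogg1, the glycosylase for oxidised guanine, had 0, 8 and 26 counts (0, 24.6 and 98.2 CPM; log2 fold change 3.02, SE 1.89, edgeR adjusted p 0.64), with the WT libraries also unequal. Xrcc1, the scaffold of single-strand break repair, had 90, 25 and 63 counts (249, 76.9 and 238 CPM), so KO was level with WT replicate 1. Its 4 transcript rows held 0 to 63 counts in KO, so its level depends on the transcript chosen. Apex1, the endonuclease that cuts at abasic sites, had 7, 35 and 12 counts, with KO between the WT libraries. The 19 other genes of this role totalled 1474, 674 and 665 CPM, with Lig1, the replicative ligase, at 102, 81 and 29 counts and Parp2 at 70, 24 and 9.

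Over the 90 other repair genes examined, from crosslink repair to base excision, summed CPM was 5779, 4573 and 4560, so KO was level with WT replicate 2. Of the 67 tested, 0 passed the edgeR test. At an unadjusted p under 0.05, 3 were lower (4.48%) and 2 higher (2.99%), beside 6.51% and 3.53% of all tested genes. The median log2 fold change was -0.37, against -0.31 over all tested genes. The lower genes included Gtf2h3 and Faap20, the latter a small partner of the Fanconi core complex with 37, 3 and 0 counts. The 2 higher genes were Dna2, a nuclease and helicase of end resection, with 3, 5 and 38 counts (log2 fold change 3.60, SE 1.66, edgeR adjusted p 0.42), and Clspn, the adaptor between Atr and Chek1, with 25, 18 and 73 (2.18, SE 1.09, edgeR adjusted p 0.48). KO stood apart on the lower side at 19 (26.8%) and on the higher side at 13 (18.3%) of the 71 that reached 10 counts. Over all genes the KO shares were 23.5% lower and 13.4% higher. Those lower included Usp1, which removes ubiquitin from the Fancd2 clamp (90, 59 and 16 counts), the single-strand binding subunit Rpa1 (48, 48 and 10), Bard1, the partner of Brca1 (56, 10 and 2), and Rev3l, the catalytic subunit of a translesion polymerase (21, 11 and 0). Those higher included Rpa2, another subunit of the same complex as Rpa1 (64, 46 and 94), and Rmi1, a partner of Blm (17, 2 and 35).

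Proliferation markers, which many repair genes follow through S phase, did not move in one direction. Summed CPM of 18 S phase genes was 4189, 3077 and 3241, and that of 17 G2 and M phase genes was 3589, 3394 and 4106. Mki67, a marker of cycling cells, had 1573, 1256 and 1538 CPM. KO lay within the WT pair for the S phase sum, whereas the sum of the 44 repair genes lay below both WT libraries. In bulk samples, fewer cells of a type and less RNA per cell cannot be told apart.

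Per length, the order of the genes differed between the groups. By WT mean the highest were Fance, Xrcc1 (67.0 ± 49.9 FPKM, SD, n = 2), Xrcc6 (54.2 ± 2.23) and Apex1 (49.0 ± 48.2). Fance and Xrcc1 do not differ beyond their spread, and neither do the neighbours after them. In KO the highest were Xrcc1 at 122 FPKM, Parp1 at 69.3, Ogg1 at 67.3 and Chek2 at 54.0, and Xrcc6 stood at 5.44. The levels are sums over the transcript rows of a gene. In the 51 cases of a gene with several rows and a value in a library, the top row held over 99% of the sum in 43 and 63.2% at the least (Xrcc1 in KO). The 1 KO library gives no spread.

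The genes lie on many chromosomes and are all annotated as protein-coding. On mm10 Fance is on chromosome 17 at 28313530 to 28326574, Fancg on chromosome 4 at 43002337 to 43010567, Fancf on chromosome 7 at 51860577 to 51862267 and Fancl on chromosome 11 at 26387084 to 26471883. Xrcc6 is on chromosome 15 at 81987833 to 82040085, Brca1 on chromosome 11 at 101488761 to 101551955, Rad50 on chromosome 11 at 53649519 to 53707319 and Atm on chromosome 9 at 53437122 to 53536828. Chek2 is on chromosome 5 at 110839800 to 110874140, Parp1 on chromosome 1 at 180568891 to 180600999 and Ogg1 on chromosome 6 at 113326972 to 113334877. Use of strand is not given in the sources used here, and exons of 18 of the 44 genes overlap those of a gene on the opposite strand, protein-coding for 15 of them, so their counts are uncertain. The largest share is in Apex1, with 877 of 1239 exon bases shared with Pip4p1 (11, 13 and 7 counts). Fancl shares 462 of 2724 bases with Vrk2 (5, 2 and 0 counts), Xrcc6 shares 282 of 3319 with Desi1 (17, 25 and 47 counts), and Ogg1 shares 65 of 1549 with Camk1 (16, 23 and 22 counts). Fance, Fancg and Fancf had no such overlap in GENCODE M21.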

How the data were processed

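RNA was taken from sorted LKS cells of 2 WT libraries and 1 CD73 KO library, grouped by the sample titles. For each RefSeq transcript the authors deposited a whole-number read count and an FPKM value. STAR and mm10 appear in the submitters' processing notes, with no version. How reads were counted, how FPKM was estimated and whether strand was used is not stated there. The unit of the FPKM column was inferred from its relation to the counts. The gene count was the highest count over the rows of a symbol, since 8313 of 24982 symbols have more than 1 of the 42574 rows, and CPM used the library total.

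The test across genes was edgeR's quasi-likelihood F-test (version 4.0.16, R 4.3.3) after filterByExpr and TMM scaling, with a threshold of 0.05 on the Benjamini-Hochberg adjusted p. The WT pair gives 1 residual degree of freedom, and KO is assumed to vary like it. The SE comes from the log2 fold change and its F value (size over root F). Nothing says that the libraries are separate animals, so p-values reflect a spread that may be only technical. In 3 simulations of KO against WT (7181 to 7225 genes, 200 changed 16-fold), 68% to 76% of raised and 6% to 13% of lowered genes were recovered, with 10 false calls, so power for lower genes was small.

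Every listed gene is accounted for. Full statistics go to listed genes at an unadjusted p under 0.05 or past the 2-fold size rule (a bound in place of the fold and SE for genes at 0 in KO), with a few others chosen after their values were seen; some genes outside the list are not reported here. The listed genes and roles were chosen with earlier results of these data known. Alternatives were other scaling, filters, gene counts, FPKM, DESeq2 1.42.0 and leaving out each WT library. Promoter windows are from RefSeq and overlaps from GENCODE M21.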

Additional observations from a re-analysis of the deposited data

How the results depend on the processing

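The count of listed genes past the threshold was 0 under every alternative with a test (other scaling, other filters, mean or summed transcript counts, no Rn45s, DESeq2), with 1 to 4 at an unadjusted p under 0.05. DESeq2 gave several listed genes no adjusted p. The count over all genes, 8 in the reported fit, was 4 with no filter beyond 1 count, 0 with at least 10 counts in every library or 50 in any, 1 with mean transcript counts, 0 with summed transcript counts, 0 without Rn45s and 13 with DESeq2; the cause was not tested. The unadjusted counts for those with 0 calls were 340, 793 and 716. The median log2 fold change of the listed genes was -0.55 under the stricter filter, which tests fewer genes, and ranged from -1.28 to -0.80 when either WT library was left out, the latter without WT replicate 2. The number of listed genes at least 2-fold lower in KO, 14 in the reported values, ranged from 15 to 21 with a single WT library, where 34.6% to 35.6% of all genes were lower, and was 13 with TMM-scaled totals, a setting chosen after seeing the data. The number higher, 2 in the reported values, ranged from 6 to 7 with a single WT library, because only one comparison then has to be met. The 16 listed genes refitted under each alternative were those past the 2-fold size rule or at an unadjusted p under 0.05. None changed sign (5 of them under the stricter filter). That rule already placed KO apart from both WT libraries, so their signs could hardly change and say little about stability. Genes with KO between the WT libraries, such as Xrcc1, Fancc, Fanci, Xpc, Xrcc3 and Apex1, have either sign in CPM depending on the WT library left out. With 1 WT library left there are no residual degrees of freedom and no test. No paired analysis was possible because the KO library carries no replicate number and stands alone. Depth limits the genes at 0 in KO, for which up to 3 counts could have been missed.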
